A study of Mus musculus with 6 samples.

Results

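The genes described here are 32 genes of cholesterol synthesis, uptake and efflux and of the SREBP and LXR regulators that control them, taken by name from a table of 24736 gene symbols. All 32 were found in the table. By role they were 7 genes of the mevalonate arm of synthesis, 11 of the squalene and sterol arm, 5 regulators of the SREBP pathway, 3 of uptake, transport and esterification, 2 LXR receptors and 4 LXR targets. Intestinal crypts, the glandular pits that hold the stem cells of the gut epithelium, were taken from the full length of the gut of male mice aged 12 weeks and profiled by RNA sequencing, with 3 WT mice and 3 mice labelled Mtg16−/−. Neither group received a treatment, and crypts of both were released in cold PBS with 2 mM EDTA for 30 minutes. The labels describe the knockout as CRISPR induced, whereas the methods describe Mtg16−/− mice obtained as a gift, and which is right could not be settled here. The mutation is carried in the whole animal and is not limited to the epithelium. Expression was given as TPM, a transcript abundance from which gene length is divided out and which sums to a fixed total per library. Sequencing depth cannot be read from TPM and is unknown.

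Cholesterol is built from acetyl-CoA through mevalonate, farnesyl diphosphate, squalene and lanosterol. When sterols in the endoplasmic reticulum run low, SCAP escorts SREBP2 to the Golgi, where it is cleaved into an active transcription factor that turns on the synthesis genes, while INSIG proteins hold the complex back when sterols are plentiful. LXR receptors are switched on by oxysterols and drive genes of sterol efflux, and enterocytes, the absorptive cells of the intestine, take up dietary sterol through NPC1L1 and return part of it to the lumen through ABCG5 and ABCG8.

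Cbfa2t3, the gene that encodes MTG16, was checked first. It had 3.67, 6.69 and 4.52 TPM in WT replicates 1 to 3 and 4.62, 6.43 and 3.23 TPM in the replicates labelled Mtg16−/−. The groups overlapped, with a log2 fold change of −0.06 (SE 0.27, limma BH-adjusted p = 0.937). A gene level sums over exons and does not show whether a given exon is lost, so this value did not separate the groups, and the libraries are called by their labels throughout. The libraries had pairwise correlations of log2(TPM + 1) between 0.931 and 0.980. WT replicate 1 stood apart in its levels of enterocyte, lymphocyte and Paneth cell markers, and its values are given beside the results below.

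All 32 genes passed the filter of a mean of at least 1 TPM over the 6 libraries, and 12268 genes of the table were tested. None of the 32 was called by limma at a BH-adjusted p under 0.1, against 0.0326% of all tested genes, which is 4 genes. With the replicate number as a block, 11 were called, all lower, against 9.79% of all tested genes, but the numbers were not taken to pair the mice. Without that block, 11 of the 32 were lower in the libraries labelled Mtg16−/− at an unadjusted p under 0.05 in limma. At that threshold 0 were higher, and the shares of all tested genes were 8.05% lower and 6.53% higher. For 11 of the 32 every library labelled Mtg16−/− lay below every WT library, against 11.1% of all tested genes, and for 0 of the 32 every one lay above, against 9.94%. The 11 became 8 with median-ratio rescaling and 7 with quantile normalization, against 10.6% and 9.17% of all tested genes: Srebf2, Msmo1 and Dhcr7 overlapped under both, and Pmvk also under the latter. The log2 fold change was below 0 for 27 of the 32 and above 0 for 5, with a median of −0.36, beside a median of −0.03 over all tested genes. In these bulk libraries, fewer cells of a type and less RNA per cell cannot be told apart. With 3 mice against 3, an exact permutation test of a single gene cannot go below p = 0.1.

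**Figure D1:**
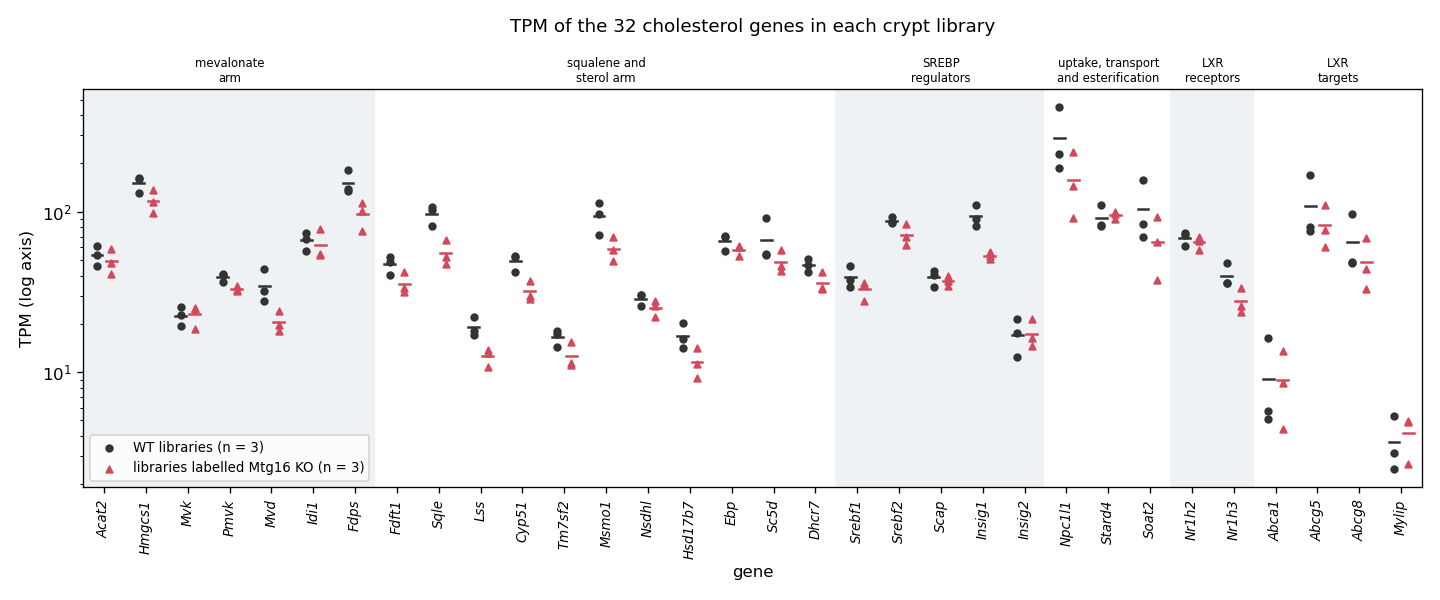
TPM of each of the 32 genes in each library, on a log axis, grouped by role. Circles are the 3 WT libraries, triangles the 3 libraries labelled Mtg16−/−, and bars the group means. Npc1l1 in WT replicate 1, at 449 TPM, is the highest point.

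The 7 genes of the mevalonate arm had a median log2 fold change of −0.24, with 6 below 0 and 1 above, and the groups did not overlap for 3, all lower, against 11.1% of all tested genes. On the TPM scale Hmgcs1 and Fdps were the most abundant of the arm and Mvk was the least. Fdps, which makes farnesyl diphosphate, had 139, 181 and 134 TPM in WT replicates 1 to 3 and 113, 75.7 and 101 TPM in the libraries labelled Mtg16−/−. All 3 of the latter lay below the lowest WT value, and the mean was 36.1% lower (log2 fold change −0.65, SE 0.19, limma BH-adjusted p = 0.263). Mvd, mevalonate diphosphate decarboxylase, had 31.96, 44.2 and 27.8 TPM in WT and 24.2, 19.7 and 18.1 TPM in the libraries labelled Mtg16−/−. The groups did not overlap, and WT replicate 2 was the high value among the WT libraries (log2 fold change −0.70, SE 0.19, limma BH-adjusted p = 0.263). Mvd lies on chromosome 8, 181713 bases from Cbfa2t3, at chr8:122433596-122443422 in GRCm38.p6. Whether the position of Mvd near the targeted gene bears on its level was not tested.

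Pmvk, phosphomevalonate kinase, had 36.5, 40.9 and 40.5 TPM in WT and 34.5, 32.5 and 32.3 TPM in the libraries labelled Mtg16−/−. These groups did not overlap, but the gap between them was narrow (log2 fold change −0.24, SE 0.11, limma BH-adjusted p = 0.367). Hmgcs1, the HMG-CoA synthase of the cytosol, had 162, 159 and 130.0 TPM in WT and 137, 98.8 and 116 TPM in the libraries labelled Mtg16−/−. Here replicate 1 of the latter exceeded WT replicate 3, so the groups overlapped (log2 fold change −0.36, SE 0.16, limma BH-adjusted p = 0.345). The other genes of the arm were closer to 0. Acat2, which joins acetyl-CoA units, had a log2 fold change of −0.12, Idi1, the isopentenyl diphosphate isomerase, −0.10, and Mvk, mevalonate kinase, 0.02. These small values changed with the library left out. Without replicate 2 labelled Mtg16−/− Acat2 was at −0.0034 and Idi1 at −0.011, and without replicate 3 they were at −0.25 and −0.28. Without WT replicate 2 they were at −0.024 and −0.021. Mvk ran from −0.081 without WT replicate 1 to 0.15 without replicate 2 labelled Mtg16−/−. For Idi1 the highest of all 6 libraries was replicate 3 labelled Mtg16−/−, at 78.6 TPM.

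All 11 genes of the squalene and sterol arm had a log2 fold change below 0, with a median of −0.41, and the groups did not overlap for 5, against 11.1% of all tested genes. Sqle, squalene epoxidase, which catalyzes the first oxygenation of the pathway, had 103, 107 and 81.0 TPM in WT and 66.7, 47.3 and 52.2 TPM in the libraries labelled Mtg16−/−. The highest of the latter was below the lowest WT value, and the mean was 42.7% lower (log2 fold change −0.80, SE 0.17, limma BH-adjusted p = 0.209). Lss, which closes squalene epoxide into lanosterol, had 18.1, 22.2 and 17 TPM in WT and 13.8, 13.2 and 10.9 TPM in the libraries labelled Mtg16−/−. The groups did not overlap (log2 fold change −0.56, SE 0.16, limma BH-adjusted p = 0.263). Cyp51, which removes a methyl group from lanosterol, had 52.4, 53.3 and 41.9 TPM in WT and 37.2, 29.9 and 28.7 TPM in the libraries labelled Mtg16−/−. Again every WT value was above every other value (log2 fold change −0.61, SE 0.15, limma BH-adjusted p = 0.247).

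Msmo1, the sterol methyl oxidase, had 113, 96.8 and 71.9 TPM in WT and 70.0, 49.1 and 57.5 TPM in the libraries labelled Mtg16−/−. The groups did not overlap, although WT replicate 3 and replicate 1 labelled Mtg16−/− were close (log2 fold change −0.66, SE 0.20, limma BH-adjusted p = 0.267). Dhcr7, a reductase late in the pathway, had 51.1, 46.4 and 42.3 TPM in WT and 42.0, 33.0 and 33.4 TPM in the libraries labelled Mtg16−/−. Its groups were also separated by a narrow gap (log2 fold change −0.36, SE 0.14, limma BH-adjusted p = 0.312). The groups overlapped for the other 6 genes of the arm, whose log2 fold changes ran from −0.50 for Hsd17b7, a sterol ketone reductase, to −0.17 for Ebp, a sterol isomerase. Between these were Sc5d, the sterol desaturase (−0.41), Fdft1, which makes squalene (−0.40), Tm7sf2, a sterol reductase (−0.38), and Nsdhl, a sterol dehydrogenase (−0.18). Sc5d had 91.7 TPM in WT replicate 1 against 54.5 and 53.7 TPM in the other WT libraries, and its log2 fold change was −0.16 without that library. Without replicate 2 labelled Mtg16−/−, Nsdhl was at −0.090 and Ebp at −0.11, and without WT replicate 3 Ebp was at −0.27.

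Over the 18 synthesis genes together, 17 had a log2 fold change below 0, with a median of −0.39. Non-overlapping groups were found for 8, all lower, against 11.1% of all tested genes, and for 6 with median-ratio rescaling (10.6%) and 5 with quantile normalization (9.17%). With each library left out the count ran from 8 to 13. It was 13 without WT replicate 3 (13.6% of all tested genes) and without replicate 1 labelled Mtg16−/− (20.5%). The summed level of the 18 genes was 1116, 1152 and 928 TPM in WT and 884, 689 and 795 TPM in the libraries labelled Mtg16−/−. The sums did not overlap, and the mean sum was 25.9% lower in the latter. Hmgcs1 was the most abundant of the 18. WT replicate 2 was the highest library for 10 of the 18 genes and WT replicate 1 for 7, and the lowest library was replicate 2 labelled Mtg16−/− for 11 and replicate 3 for 7.

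**Figure D2:**
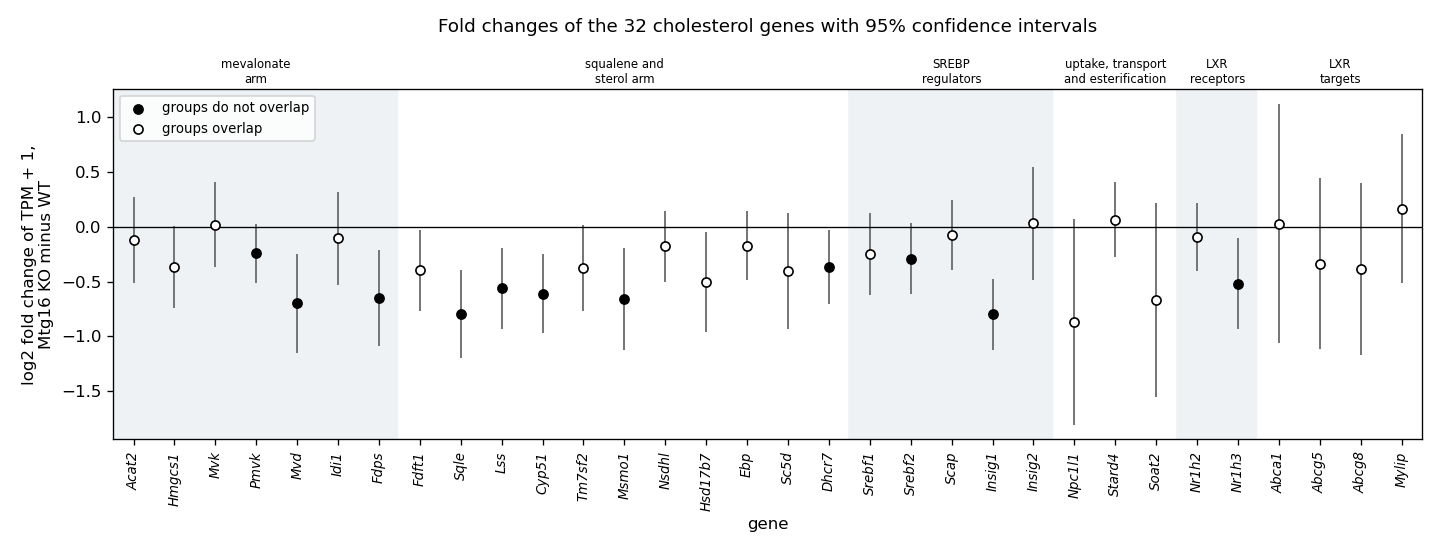
Log2 fold change of TPM + 1 of each gene, libraries labelled Mtg16−/− minus WT, with the 95% confidence interval from limma as a line. Filled points are the 11 genes whose groups did not overlap, all below 0, from Insig1 at −0.80 to Pmvk at −0.24.

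Among the regulators, Insig1 had the smallest p of the 32 genes, at rank 35 of the 12268 tested. Insig1, which retains the SCAP and SREBP complex in the endoplasmic reticulum and is itself a target of SREBP, had 109.6, 90.5 and 81.7 TPM in WT and 50.8, 53.2 and 55.8 TPM in the libraries labelled Mtg16−/−. The latter were within a few TPM of each other and far below the lowest WT value, and the mean was 43.3% lower (log2 fold change −0.80, SE 0.14, limma BH-adjusted p = 0.141). Srebf2, which encodes SREBP2, had 84.7, 92.3 and 85.8 TPM in WT and 84.0, 69.6 and 62.4 TPM in the libraries labelled Mtg16−/−. Replicate 1 of the latter was just below WT replicate 1, so the groups were close but did not overlap (log2 fold change −0.29, SE 0.14, limma BH-adjusted p = 0.373). The other 3 regulators overlapped between groups. Srebf1, which encodes SREBP1, had a log2 fold change of −0.24, or −0.13 without WT replicate 1 or replicate 3 labelled Mtg16−/−, Scap −0.07 and Insig2, the second INSIG gene, 0.03.

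The 3 genes of uptake, transport and esterification overlapped between groups, and Npc1l1 and Soat2 differed widely between libraries of a group. Npc1l1, the sterol transporter of the brush border, had 449, 189 and 229 TPM in WT and 237, 145 and 91.6 TPM in the libraries labelled Mtg16−/−. WT replicate 1 was far above the rest, and replicate 1 labelled Mtg16−/− exceeded the other WT libraries (log2 fold change −0.87, SE 0.40, limma BH-adjusted p = 0.364). Its log2 fold change was −0.50 without WT replicate 1 and −0.53 without replicate 3 labelled Mtg16−/−. Soat2, which esterifies cholesterol for chylomicrons, had 157, 69.6 and 84.3 TPM in WT and 93.4, 64.5 and 37.5 TPM in the libraries labelled Mtg16−/−. WT replicate 1 was again the highest and the groups overlapped (log2 fold change −0.67, SE 0.38, limma BH-adjusted p = 0.434). For Soat2 it was −0.32 without either WT replicate 1 or replicate 3 labelled Mtg16−/−. Stard4, a cytosolic sterol carrier that is also a target of SREBP2, had 110.2, 83.2 and 81.8 TPM in WT and 99.1, 90.4 and 96.3 TPM in the libraries labelled Mtg16−/−. Its groups overlapped, with a log2 fold change of 0.07, and without WT replicate 1 every library labelled Mtg16−/− lay above the WT libraries, at a log2 fold change of 0.20.

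Of the LXR receptors, Nr1h3, which encodes LXRα, had 47.7, 36.2 and 36.2 TPM in WT and 33.7, 23.6 and 25.7 TPM in the libraries labelled Mtg16−/−. The groups did not overlap (log2 fold change −0.52, SE 0.18, limma BH-adjusted p = 0.284). Nr1h2, which encodes LXRβ, had a log2 fold change of −0.10, from −0.18 to −0.025 with each library left out, and overlapped between groups.

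The 4 LXR targets had a median log2 fold change of −0.15, with 2 below 0 and 2 above, and the groups overlapped for all 4. Abcg5, a member of the transporter pair that returns sterol to the lumen, had 169.95, 80.0 and 75.9 TPM in WT and 110.2, 77.0 and 60.2 TPM in the libraries labelled Mtg16−/−. Abcg8, its partner, had 96.9, 47.9 and 48.4 TPM in WT and 69.0, 43.8 and 33.0 TPM in the libraries labelled Mtg16−/−. In both genes WT replicate 1 was the highest library, replicate 1 labelled Mtg16−/− came next, and replicate 3 labelled Mtg16−/− was the lowest (log2 fold changes −0.33, SE 0.33, and −0.38, SE 0.34). Without WT replicate 1 the log2 fold change of Abcg5 was 0.037 and that of Abcg8 −0.053. Their RefSeq spans share 6710 bases on chromosome 17, and whether strand was used in counting is not given in the sources used here, so how reads in that stretch were divided is uncertain.

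Abca1, the efflux transporter to lipoprotein acceptors, had 16.4, 5.76 and 5.10 TPM in WT and 13.6, 8.61 and 4.44 TPM in the libraries labelled Mtg16−/−. Mylip, a ubiquitin ligase that lowers lipoprotein receptors, had 5.34, 3.13 and 2.48 TPM in WT and 4.89, 4.98 and 2.66 TPM in the libraries labelled Mtg16−/−. Replicate 1 was the highest WT library for both, and the ranges of the groups overlapped over most of their width (log2 fold changes 0.03, SE 0.47, and 0.17, SE 0.29). WT replicate 1 was the highest of the 6 libraries for all 4 LXR targets and for all 3 genes of uptake, transport and esterification, against 7 of the 18 synthesis genes.

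Synthesis genes and LXR targets were then set side by side in each library, as the median deviation of log2(TPM + 1) from the mean of the 6 libraries. For the synthesis genes it was 0.23, 0.26 and 0.04 in WT replicates 1 to 3 and −0.04, −0.30 and −0.28 in the libraries labelled Mtg16−/−, so the groups did not overlap. For the LXR targets it was 0.88, −0.19 and −0.35 in WT and 0.34, −0.07 and −0.62 in the libraries labelled Mtg16−/−, so the groups overlapped widely. The summed level of the 4 LXR targets was 289, 137 and 132 TPM in WT and 198, 134 and 100.3 TPM in the libraries labelled Mtg16−/−, with Abcg5 the most abundant. Subtracting the LXR median from the synthesis median gave −0.65, 0.45 and 0.39 in WT and −0.38, −0.23 and 0.34 in the libraries labelled Mtg16−/−. The groups overlapped in this difference, and the medians of the fold changes differed by −0.23, less than the pooled SD of 0.51 of this difference between replicates. Without WT replicate 1 the LXR median was 0.23, and without replicate 3 labelled Mtg16−/− it was 0.13, whereas the synthesis median lay between −0.51 and −0.32 whichever library was left out. With all 6 libraries the difference between synthesis genes and LXR targets thus did not exceed the spread between mice, and its size depended on which library was left out. Without WT replicate 1 the medians of the fold changes differed by −0.56, against a pooled SD of 0.32, and the difference per library was 0.37 and 0.32 in WT and −0.47, −0.42 and 0.22 in the libraries labelled Mtg16−/−, which did not overlap. The medians differed by −0.47 without replicate 3 labelled Mtg16−/− and by −0.16 without replicate 2, and by less when others were left out, at −0.0052 without WT replicate 2, −0.092 without WT replicate 3 and −0.079 without replicate 1 labelled Mtg16−/−.

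**Figure D3:**
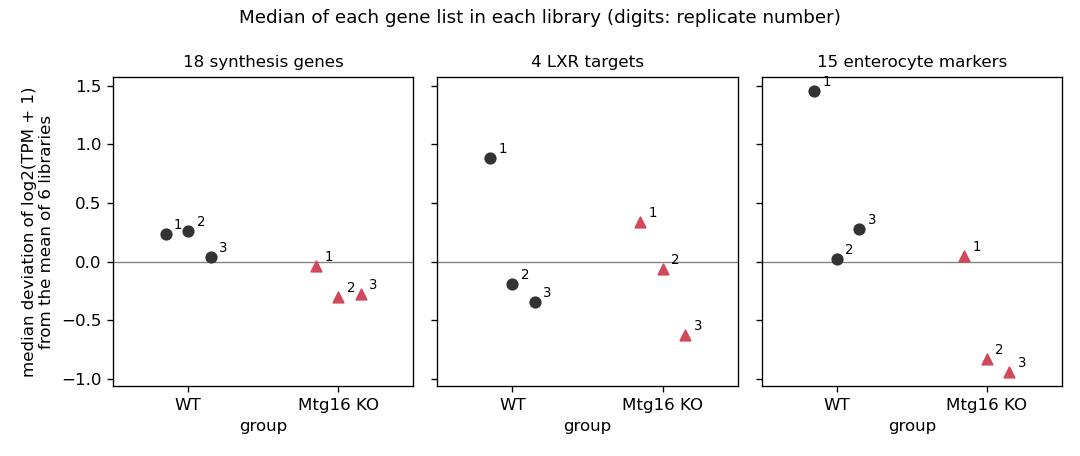
Median deviation of log2(TPM + 1) from the mean of the 6 libraries, for synthesis genes, LXR targets and enterocyte markers, with replicate numbers beside the points. The groups are apart for the synthesis genes and overlap for the LXR targets and the enterocyte markers, in which WT replicate 1 is highest at 0.88 and 1.45.

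Enterocyte markers, which WT replicate 1 held at the highest level, were examined beside these genes. All 15 of 15 markers, among them Fabp1, Alpi and Mttp, had a log2 fold change below 0, with a median of −1.14. The groups did not overlap for 7, all lower, against 11.1% of all tested genes. By limma 0 were called at a BH-adjusted p under 0.1. At an unadjusted p under 0.05, 10 were lower, against 8.05% of all tested genes. The summed level of the 15 markers was 45438, 16026 and 19779 TPM in WT and 15619, 8746 and 8163 TPM in the libraries labelled Mtg16−/−. Apoa1 was the most abundant, and no marker was at 0. The median deviation of the markers was 1.45, 0.02 and 0.27 in WT and 0.04, −0.83 and −0.94 in the libraries labelled Mtg16−/−. The groups overlapped in this deviation, through WT replicate 2 and replicate 1 labelled Mtg16−/−, whereas those of the synthesis genes did not. In the summed levels the groups overlapped neither for the markers nor for the synthesis genes. For the synthesis genes WT replicate 2 was highest. WT replicate 1 was the highest library for the enterocyte markers, the LXR targets and Npc1l1 alike, and replicate 3 labelled Mtg16−/− the lowest. Without WT replicate 1, 13 genes of the 32 had a lower level in every library labelled Mtg16−/− and 1, Stard4, a higher level, against 16.9% and 14.6% of all genes tested without that library. The same libraries were the extremes of the 9 lymphocyte markers, whose median deviation was 1.08, −0.44 and 0.26 in WT and 0.22, −0.25 and −1.06 in the libraries labelled Mtg16−/−, with summed levels of 469, 155 and 266 TPM and of 236, 181 and 79.96 TPM, most abundant Gzma. WT replicate 1 was the lowest library in the median deviation of Paneth cell markers (−1.03, against −0.54 to 0.70 in the others), crypt base stem cell markers (−0.60, against −0.13 to 0.49) and proliferation markers (−0.37, against −0.12 to 0.21). The part of these cell type differences in the levels of the cholesterol genes was not tested.

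Other genes of the pathway, listed by known function, had 0 calls by limma at a BH-adjusted p under 0.1. Of 18 fatty acid genes driven by SREBP, 16 were tested, with a median log2 fold change of −0.03, and 3 were lower and 1 higher at an unadjusted p under 0.05, against 8.05% and 6.53% of all tested genes, shares that apply to the lists below as well. The groups did not overlap, with lower values in the libraries labelled Mtg16−/−, for Elovl6, a fatty acid elongase (−0.63), Me1, malic enzyme (−0.55, or −0.37 without WT replicate 3), and Aacs, acetoacetyl-CoA synthetase (−0.40), and with higher values for 2 others, against 11.1% and 9.94% of all tested genes. Elovl6 had 62.8, 47.8 and 54.6 TPM in WT and 37.9, 36.9 and 30.7 TPM in the libraries labelled Mtg16−/−. The 14 genes of SREBP processing and degradation had a median of −0.05, with 1 lower and 2 higher at an unadjusted p under 0.05. Their groups were apart for 2 lower and 3 higher genes, against 11.1% and 9.94% of all tested genes. Mbtps2, the protease that makes the second cut in SREBP, had 5.86, 4.89 and 6.32 TPM in WT and 6.41, 9.28 and 8.45 TPM in the libraries labelled Mtg16−/−, which did not overlap (0.43). Sar1b and Sec24c, of the COPII coat that carries SCAP to the Golgi, had log2 fold changes of −0.42 and −0.38. Sar1b was highest in WT replicate 1, at 158 TPM, and its log2 fold change was −0.16 without that library.

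Of 12 other LXR targets and RXR partners, 9 were tested, with a median of −0.09 and 1 lower and 0 higher at an unadjusted p under 0.05. No tested gene of this list had groups apart. Nr0b2, also of this list, was below the filter, had groups apart and is described at the end. Of 21 genes of intracellular sterol transport and oxysterols, 19 were tested, with a median of −0.30 and 4 lower and 0 higher at an unadjusted p under 0.05. The groups were apart for 4 lower genes and 1 higher gene, against 11.1% and 9.94% of all tested genes. Lipa, the lysosomal acid lipase that frees cholesterol from its esters, had 36.2, 10.6 and 15.6 TPM in WT and 8.71, 6.78 and 6.07 TPM in the libraries labelled Mtg16−/−. WT replicate 1 was the high value, and the log2 fold change of −1.25 (SE 0.39, limma BH-adjusted p = 0.272) was −0.78 without it. Scarb1, a lipoprotein receptor, had 6.69, 3.57 and 4.66 TPM in WT and 1.53, 2.05 and 2.44 TPM in the libraries labelled Mtg16−/−. Lrp8, another receptor of that kind, had 2.56, 4.53 and 2.38 TPM in WT and 1.18, 1.17 and 0.92 TPM in the libraries labelled Mtg16−/−. The groups did not overlap for either gene, with log2 fold changes of −0.97 and −0.96.

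Promoters were read for the members because many synthesis genes had lower values together. RefSeq promoters of GRCm38.p6, 300 bases around the start of the gene, were present for 27 of the 32, and Fdps, Fdft1, Sqle, Stard4 and Soat2 had no entry. Both strands were searched for TCACNCCAC, a core of the sterol regulatory element, CCAAT, the box bound by NF-Y, and CACGTG, an E-box. A direct repeat of the hexamer RGKTCA spaced by 4 bases was also searched, as a strict form of the LXR repeat known as DR4. In these letters N is any base, R is A or G and K is G or T. Some genes had several promoters, up to 3 for Dhcr7, and a gene was counted when any of its promoters held a match. The exact core letters TCACNCCAC were present in 1 of the 15 synthesis genes with a promoter, Hmgcs1. The shares were 1.44% of all genes in the promoter table, 1.38% of tested genes and 1.24% of single promoters. A CCAAT box was present in 14 of the 15, which is 93.3%, against 41.1% of all genes in the promoter table, 43.3% of tested genes and 37.4% of single promoters. It was also present in 3 of the 4 LXR targets, and in 22 of the 27 members with a promoter (81.5%). For the synthesis genes the other letters were as follows. An E-box was present in 3 of the 15, against 8.09% of all genes in the promoter table, 12.0% of tested genes and 7.15% of single promoters. The strict DR4 letters were present in 0, as in 0 of the 4 LXR targets, against 0.0962% of all genes in the promoter table and 0.0822% of single promoters. These matches describe letters in these windows and are not sites. An element with other letters, or outside the window, would be missed, so a missing match does not show that an element is absent.

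The promoters of Insig1, which had the smallest p, of Hmgcs1, which held the sterol regulatory core, and of Mvd and Cyp51, which were separated between groups, are shown 5′ to 3′ on the strand of the gene. Capitals mark a match on either strand. They are at chr5:28071162-28071461 on the plus strand for Insig1, chr13:119690101-119690400 on the plus strand for Hmgcs1, chr8:122443373-122443672 on the minus strand for Mvd and chr5:4104648-4104947 on the minus strand for Cyp51. In Insig1 the capitals are a CCAAT box on the reverse strand and an E-box, in Hmgcs1 4 CCAAT boxes on the reverse strand and the TCACCCCAC core, in Mvd 2 CCAAT boxes and in Cyp51 1.
Insig1: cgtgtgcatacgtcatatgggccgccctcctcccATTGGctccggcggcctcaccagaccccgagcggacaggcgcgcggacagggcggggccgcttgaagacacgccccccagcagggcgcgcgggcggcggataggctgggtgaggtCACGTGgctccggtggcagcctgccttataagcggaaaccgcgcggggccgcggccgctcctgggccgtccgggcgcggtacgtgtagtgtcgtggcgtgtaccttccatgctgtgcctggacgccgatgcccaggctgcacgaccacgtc
Hmgcs1: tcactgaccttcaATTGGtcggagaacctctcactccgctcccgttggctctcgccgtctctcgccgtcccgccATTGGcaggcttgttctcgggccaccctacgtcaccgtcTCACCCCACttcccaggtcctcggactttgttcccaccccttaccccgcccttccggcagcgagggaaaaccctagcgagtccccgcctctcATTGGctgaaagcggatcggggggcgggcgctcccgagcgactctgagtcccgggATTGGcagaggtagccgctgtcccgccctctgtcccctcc
Mvd: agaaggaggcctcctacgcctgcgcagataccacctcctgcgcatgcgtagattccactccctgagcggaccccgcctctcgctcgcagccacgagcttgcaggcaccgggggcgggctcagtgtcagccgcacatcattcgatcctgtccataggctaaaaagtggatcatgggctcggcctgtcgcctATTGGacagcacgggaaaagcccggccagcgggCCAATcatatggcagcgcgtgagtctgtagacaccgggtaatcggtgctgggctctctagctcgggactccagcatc
Cyp51: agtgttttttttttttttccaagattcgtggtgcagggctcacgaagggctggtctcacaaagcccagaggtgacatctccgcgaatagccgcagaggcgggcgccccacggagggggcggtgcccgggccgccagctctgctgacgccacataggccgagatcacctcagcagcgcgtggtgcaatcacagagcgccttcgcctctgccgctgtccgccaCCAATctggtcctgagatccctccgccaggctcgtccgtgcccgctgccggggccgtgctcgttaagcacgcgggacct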

How the data were processed

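The authors quantified the ribosome-depleted libraries with RSEM and deposited TPM values, rounded to 2 decimals, for 24736 gene symbols. The submitters' processing notes name cutadapt 1.9.1, STAR 2.5.2a, RSEM 1.3.0, DESeq2 1.12.3 and the build mm10. No counts were used here, so no count test was run. Values were transformed as log2(TPM + 1), a scale on which changes of genes with low TPM are understated. The 12268 genes with a mean of at least 1 TPM were tested with limma 3.58.1 (lmFit and eBayes with an intensity trend, R 4.3.3) without covariates, with Benjamini-Hochberg (BH) adjustment over all of them and a call at an adjusted p under 0.1. Intervals are at 95%. The calculation was tested on simulated data with the same spread for every gene and independent libraries. That setting is simpler than these data, so the test checks the code and not the results. Members and lists were chosen with earlier results of these data known. All 32 members are named, with Cbfa2t3 and, of each other pathway list, up to 3 genes with the largest change among those whose groups did not overlap. Replicates are separate mice. Positions and promoters came from RefSeq GRCm38.p6, matched by symbol (32 and 27 of 32). Alternatives were another pseudocount, filter, scaling, trend or threshold, a replicate block and leaving out each library.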

Additional observations from a re-analysis of the deposited data

How the results depend on the processing

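The synthesis median was between −0.40 and −0.32 under every alternative that kept all 6 libraries, and between −0.51 and −0.32 with each library left out. No setting that kept all libraries turned the direction of a named gene, among the 42 compared in each, or the 38 compared at a mean of at least 5 TPM, where Cbfa2t3, Mylip, Scarb1 and Lrp8 were not tested. With a library left out 25 of the 32 members kept their direction. The count of genes called was 4 as reported, 0 without a filter, 15 at a mean of at least 5 TPM, 1 with median-ratio rescaling, 1 with quantile normalization, 0 without the intensity trend, 0 at an adjusted p under 0.05 and from 0 to 40 with each library left out, with 40 without WT replicate 1 and 0 without replicate 3 labelled Mtg16−/−. At a mean of at least 5 TPM fewer genes were tested, 10062, and the cause of the other changes was not tested. Members called were 0 under each of these settings. Members apart between groups and lower were 7 with quantile normalization (9.17% of all tested genes) and from 11 (16.1%, without replicate 2 labelled Mtg16−/−) to 19 (20.5%, without replicate 1) with each library left out, and members apart and higher from 0 to 1 (14.6%, without WT replicate 1). Members lower at an unadjusted p under 0.05 ran from 7 (without replicate 2 or 3 labelled Mtg16−/−, 4.94% and 4.07% of all tested genes) to 16 (without replicate 1, 9.78%). With each library left out the LXR median ran from −0.44 to 0.23 and the synthesis minus LXR difference from −0.56 to −0.0052. At a mean of at least 5 TPM, where 3 LXR targets were left, these were −0.33 and −0.052.

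Log2 fold changes that turned with a library left out ran from −0.31 to 0.51 for Abca1, −0.56 to 0.037 for Abcg5, −0.26 to 0.15 for Cbfa2t3, −0.17 to 0.20 for Insig2, −0.081 to 0.15 for Mvk, −0.019 to 0.41 for Mylip, −0.17 to 0.0015 for Scap and −0.0087 to 0.20 for Stard4.

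The groups share replicate numbers in the labels. After subtraction of group means, libraries with the same number correlated at 0.429, 0.0753 and 0.237, not all above 0.1, so the numbers were not taken to pair the mice, and for 2 of the 3 numbers the libraries correlated best with their own number, a hint from the data and not the design. With the replicate number as a block, limma called 1201 genes, 9.79% of those tested, of which 816 were lower, and 11 of the 32 members, all lower. At an unadjusted p under 0.05, 17 members were lower, against 14.1% of all tested genes. The depth of these TPM libraries is unknown, so its limit on low genes cannot be given.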

Other observations

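In the lists of other cell type and region markers, 0 genes were called by limma at a BH-adjusted p under 0.1. All 8 of 8 markers of crypt base stem cells had a log2 fold change above 0, with a median of 0.54. Of these 5 were higher at an unadjusted p under 0.05, against 6.53% of all tested genes. The groups did not overlap for 5, all higher, against 9.94% of all tested genes. The summed level of the 8 markers was 874, 1362 and 1500 TPM in WT and 1628, 2156 and 1847 TPM in the libraries labelled Mtg16−/−, most of it Olfm4. All 8 of 8 Paneth cell markers (median 0.99, 6 at an unadjusted p under 0.05) and all 8 of 8 enteroendocrine markers (median 0.56, 6 at an unadjusted p under 0.05) were above 0. The 10 proliferation markers had a median of 0.10, with 0 at an unadjusted p under 0.05 and overlap between groups for all 10. Markers of the proximal small intestine were below 0 for 7 of 7, with a median of −1.004 and 5 lower at an unadjusted p under 0.05. The share of all tested genes was 8.05%, which applies to the lower counts that follow as well. Lct was in this list and also among the enterocyte markers. Markers of lymphocytes were below 0 for 9 of 9 (median −0.72, 1 at an unadjusted p under 0.05), of goblet cells for 6 of 8 (−0.42, 2) and of colon for 3 of 5 tested (−0.39, 2). The colon markers below 0 were Car4, Slc26a3 and Mettl7b. Hoxb13 was at 0 in every library and Aqp8 at most at 0.15 TPM, so neither was tested. Car1 was above 0 only in WT replicate 2 (3.58 TPM) and replicate 2 labelled Mtg16−/− (11.93 TPM). The list thus gives no measure of colon content. Tuft cell markers were below 0 for 4 of 4 tested (−0.50), those of macrophages and dendritic cells for 5 of 6 tested (−0.12) and those of ileum for 3 of 7 tested (0.10). Each of these lists had 0 at an unadjusted p under 0.05. Of fibroblast markers 3 of 8 and of endothelial markers 1 of 5 passed the filter, with 0 at an unadjusted p under 0.05 and summed levels under 10 TPM in every library. Rn45s, the precursor of ribosomal RNA, held 4.37%, 6.83% and 6.40% of TPM in WT and 4.16%, 6.28% and 3.97% in the libraries labelled Mtg16−/−.

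Nr0b2, a nuclear receptor of bile acid and sterol control, was in the list of other LXR targets and RXR partners. It was below the filter on low values and was picked after its values were seen. It had 1.41, 1.93 and 1.49 TPM in WT and 0.25, 0.17 and 0.15 TPM in the libraries labelled Mtg16−/−, and the groups did not overlap. Without the filter its log2 fold change was −1.13, with a limma BH-adjusted p of 0.130.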
